A study of Mus musculus with 56 samples.

Results

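The livers of mice given the gapmer HTS-3 were compared with those of mice given the gapmer TS-2, both taken 16 h after a single dose, from Affymetrix arrays of 45101 probe sets. The 7 arrays were chosen by their titles alone, 4 of HTS-3 and 3 of TS-2, of 56 arrays in the series. Each array held liver RNA of 1 male mouse of the outbred CD-1 strain, 6 to 8 weeks old when dosing began. HTS-3 mice received the sequence that the labels call severely toxic and TS-2 mice the sequence called toxic, both at 25 mg/kg by subcutaneous injection, and vehicle mice (3 arrays at 16 h) received Dulbecco's phosphate buffered saline at the same volume of 10 mL/kg. Of 10 mice dosed per group and time, the livers that ranked highest for minor hepatic hypertrophy were used, so the arrays do not stand for all dosed mice. The HTS-3 mice meant for a later time died or had to be killed from 48 h onward. HTS-3 mice (3 arrays) and TS-2 mice (4 arrays) taken at 8 h serve below for the time course. The filter and the estimate of the spread drew on all 37 single-dose arrays. These also include mice given another gapmer, NTS-1, at 25 mg/kg, and vehicle and TS-2 mice taken at other times.

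LNA gapmers are antisense oligonucleotides whose locked nucleic acid ends hold a central DNA stretch on a target RNA, which lets RNase H1 cut that RNA in the nucleus or cytoplasm. A gapmer can also pair imperfectly with other transcripts, pre-mRNA included, and lower them in the same way. Long genes offer more intronic sequence to pair with, and the liver takes up more of an injected gapmer than most tissues. Neither the sequences nor the intended targets of HTS-3 and TS-2 were known for the comparison. The comparison puts side by side the gapmer after which the mice died and one also called toxic, at matched dose and time.

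Values are intensities on a linear scale, differences are log2 ratios of HTS-3 over TS-2 with the standard error (SE) of the fit, and the threshold was an adjusted p of 0.05 (limma, Benjamini-Hochberg). Tested were the 9137 genes that read 32 or more on 3 or more single-dose arrays. An intensity under 32 is called dim. A fold against a dim group is given as at least the fold obtained with values under 32 taken as 32. The single-dose arrays share a floor of 4.56, at which 44.1% to 47.3% of probe sets lay per array. With 3 or 4 mice a group, the number of arrays limits precision.

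The 7 livers did not form equally tight groups. TS-2 mice correlated with one another at 0.987 to 0.989 over the genes tested, and HTS-3 mice at 0.948 to 0.982. HTS-3 mouse 4 stood farthest from the TS-2 mice, at 0.921 to 0.925, and also from its own group, at 0.948 to 0.967. HTS-3 mouse 3 correlated at 0.976 to 0.978 with the TS-2 mice and at 0.948 to 0.980 with the other HTS-3 mice. Results below are therefore also given without mouse 3 or mouse 4 where that changes them. The 3'/5' log2 ratio of the Actb control probe sets, a measure of RNA integrity, was 1.77, 1.56, 1.49 and 1.15 in HTS-3 mice 1 to 4, against 1.34, 1.29 and 1.34 in TS-2 mice 1 to 3. All 9 hepatocyte markers tested were bright in both groups, with summed intensities of 456000 to 531000 in HTS-3 livers and 444000 to 468000 in TS-2 livers.

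At 16 h the livers of HTS-3 mice had lost transcripts that TS-2 livers kept near the vehicle level. Of 9137 genes, 1192 passed the test (13%), 767 lower (8.39%) and 425 higher (4.65%) in HTS-3 than in TS-2 livers. These counts drew the estimate of the spread from all single-dose arrays. With only the compared groups in the fit, 352 genes passed, 292 lower and 60 higher. The values that follow are for the 1192 genes unless another fit is named. The falls were the larger changes: with values under 32 taken as 32 in the 152 called genes with a dim group, 447 genes were at least 2-fold lower and 55 at least 8-fold lower, whereas 92 were at least 2-fold higher and 3 at least 4-fold higher. The fitted median difference was -1.21 over the genes called lower (-1.14 with dim values at 32), 0.76 over those called higher (0.75) and 0.05 over all genes. HTS-3 and TS-2 mice did not overlap for 722 of the 767 lower and 367 of the 425 higher genes. Over all 9137 genes tested the mice did not overlap for 2086. The calls were made on these same values, so the lack of overlap among called genes is no separate evidence. Without HTS-3 mouse 3 there were 896 lower and 644 higher genes, and without HTS-3 mouse 4 there were 622 lower and 242 higher genes. Without TS-2 mouse 1, 2 or 3 there were 636, 591 and 588 lower and 214, 263 and 228 higher genes. With the Actb 3'/5' ratio as a covariate 922 genes were lower and 963 higher, so the excess of falls in number was not kept in that fit. After quantile normalization 781 genes were lower and 694 higher, with a median over all genes of 0.08.

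Set against the 16 h vehicle mice, each sequence gave its own picture. HTS-3 livers differed from vehicle livers in 1536 genes (16.8%), 734 higher and 802 lower. TS-2 livers differed from them in 1 gene (0.0109%), Zfp24. At an unadjusted p under 0.05 there were 427 of 9137 genes, no more than the share of 0.05 that chance gives. These comparisons share the vehicle mice with each other. Vehicle mouse 1 stood apart, with a summed intensity of the neutrophil markers S100a8 and S100a9 of 25700, against 211 as the lowest vehicle value, and without it 1017 genes differed between HTS-3 and vehicle and 0 between TS-2 and vehicle. The HTS-3 against TS-2 difference does not use the vehicle means, although the vehicle mice count in the estimate of the spread.

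The 12 genes with the largest falls passed the test whichever of the 7 mice was left out, and all but Nbr1 and Adgrv1 were dim in at least 3 of 4 HTS-3 livers. Afdn encodes afadin, which ties nectins of adherens junctions to actin. It had intensities of 7.98, 7.98, 7.98 and 8.2 in HTS-3 livers, against 669, 738 and 751 in TS-2 livers and 460, 771 and 573 in vehicle livers. All 4 HTS-3 mice lay together at a dim level, so the fold was at least 22.5 (log2 difference -6.48 ± 0.29, adjusted p = 8.16e-16). Dock4, an exchange factor that activates the small GTPase Rac, had 4.56, 6.82, 4.56 and 4.56 in HTS-3 livers, against 153, 201 and 167 in TS-2 livers and 155, 223 and 178 in vehicle livers. It was at the floor of the arrays in 3 of 4 HTS-3 mice and at least 5.39-fold lower than in TS-2 mice (log2 difference -5.10 ± 0.28, adjusted p = 1.34e-13).

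In the other large falls except Adgrv1, HTS-3 mouse 3 kept more of the transcript than its group while staying far under every TS-2 mouse. Shtn1 encodes shootin-1, known from axon outgrowth, and had 7.89, 5.74, 67.6 and 6.22 in HTS-3 livers, against 501, 489 and 733 in TS-2 livers and 287, 490 and 453 in vehicle livers. Mouse 3 was the HTS-3 mouse at 67.6, and the groups did not overlap (at least 14.6-fold lower, log2 difference -5.58 ± 0.55, adjusted p = 9.75e-09). Fbxl17, an F-box protein that selects substrates for ubiquitination, had 15.2, 15.2, 133 and 12.5 in HTS-3 livers, against 681, 833 and 866 in TS-2 livers and 767, 1010 and 1010 in vehicle livers. It was at least 17.3-fold lower (adjusted p = 1.74e-09). Pde8a, which hydrolyses cAMP, had 9.49, 6.88, 76.1 and 7.76 in HTS-3 livers, against 395, 490 and 451 in TS-2 livers and 361, 451 and 467 in vehicle livers, and was at least 11.2-fold lower (adjusted p = 9.65e-10). Ap2a2, a subunit of the AP-2 adaptor of clathrin-coated pits, had 15.8, 12.3, 79.1 and 12.3 in HTS-3 livers, against 636, 732 and 683 in TS-2 livers and 354, 714 and 660 in vehicle livers, at least 17.0-fold lower (adjusted p = 1.94e-10). In all 4 of these genes the other HTS-3 mice were dim.

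Nbr1, a receptor that brings ubiquitinated cargo to autophagosomes, was the brightest of the 12 genes in TS-2 livers. It had 121, 54.7, 509 and 27.8 in HTS-3 livers, against 3340, 3980 and 3730 in TS-2 livers and 2000, 3390 and 2840 in vehicle livers. It was 37.3-fold lower (log2 difference -5.22 ± 0.54, adjusted p = 2.31e-08), again with mouse 3 highest in its group. Apc, a scaffold of the complex that degrades beta-catenin, had 5.67, 14.6, 46.3 and 7.37 in HTS-3 livers, against 410, 486 and 412 in TS-2 livers and 299, 334 and 357 in vehicle livers, at least 12.4-fold lower (adjusted p = 3.68e-09). Atxn1 (at least 14.6-fold lower), Pde9a, which hydrolyses cGMP (at least 12.7-fold lower), the intramembrane protease Rhbdd1 (at least 15.6-fold lower) and the adhesion receptor Adgrv1 (31.0-fold lower) complete the 12. Their HTS-3 values lay between 4.56 and 211 and their TS-2 values between 248 and 2470. A second probe set, where Atxn1, Nbr1 and Apc had one, gave differences of -5.21, -4.05 and -4.76.

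**Figure D1:**
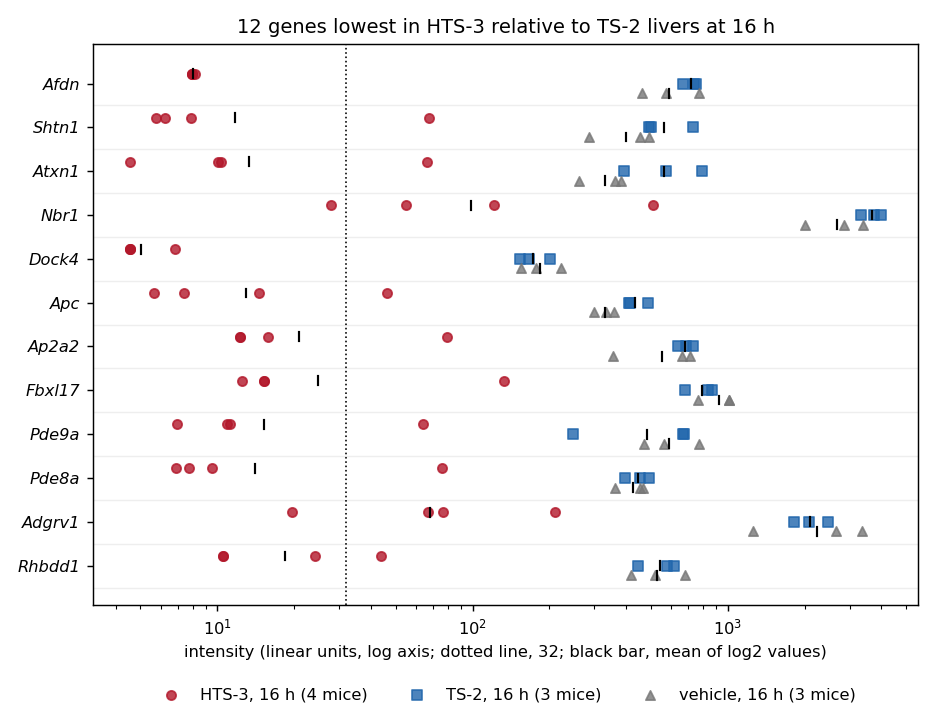
Intensity (x axis, log scale) of the 12 genes with the largest falls in HTS-3 relative to TS-2 livers at 16 h, with 1 point per mouse: HTS-3 (4 mice, red circles), TS-2 (3 mice, blue squares) and vehicle (3 mice, grey triangles), the mean of log2 values as a black bar and the intensity of 32 as a dotted line. All HTS-3 points lie left of all TS-2 points, and in Shtn1, Fbxl17, Pde8a and Ap2a2 a single HTS-3 mouse, mouse 3 (67.6, 133, 76.1 and 79.1), lies right of the others.

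A loss from view was mostly one-sided. In 43 of 9137 tested genes every HTS-3 array was dim while every TS-2 array reached 32, and in 10 genes the reverse held. Every HTS-3 array was dim while every TS-2 array reached 320 in 2 genes. Between TS-2 and vehicle livers the same counts were 4 genes dim in TS-2 and 3 genes dim in vehicle. The Ets family transcription factor Elf1, lowered by HTS-3 in an earlier analysis of these arrays, had 11.0, 17.4, 32.3 and 22.2 in HTS-3 livers, against 319, 347 and 288 in TS-2 livers and 584, 463 and 349 in vehicle livers (at least 9.89-fold lower, adjusted p = 1.28e-11). It reached 32 in 1 of 4 HTS-3 mice.

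Gene span, the length of the gene from first to last annotated base in the GRCm38.p6 annotation, differed widely between the genes called lower and higher. The median span was 90.5 kb over 765 lower genes with an annotated span, 15.3 kb over 424 higher genes and 22.8 kb over 9119 tested genes. Genes of 100 kb or more were called lower in 34.9% of 1002 cases and higher in 0.499%. Genes of 30 to 100 kb were called lower in 9.93% of 2649 cases, those of 10 to 30 kb in 3.67% of 3163 and those under 10 kb in 1.56% of 2305. Called higher were 2.57% of genes of 30 to 100 kb, 6.20% of those of 10 to 30 kb and 6.72% of those under 10 kb. Within the genes of 100 kb or more, 38.9% of those brighter and 32.8% of those dimmer than the median in TS-2 livers were called lower. These shares describe the genes and were not tested.

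The span pattern was present in every HTS-3 mouse. Over the tested genes of 100 kb or more, the median log2 difference from the TS-2 mean was -0.44, -0.60, -0.34 and -0.41 in HTS-3 mice 1 to 4. The TS-2 mice, each set against the other TS-2 mice, had medians of -0.10, 0.04 and 0.04. HTS-3 and TS-2 mice did not overlap in this class. Over genes under 10 kb the HTS-3 mice had medians of 0.08, 0.16, 0.11 and 0.00, against 0.00, 0.01 and -0.01 in TS-2 mice. Among the 767 genes called lower, mouse 3 had 280 at least 2-fold below the TS-2 mean, whereas mice 1, 2 and 4 had 476, 509 and 567, a description of the values that made the calls.

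**Figure D2:**
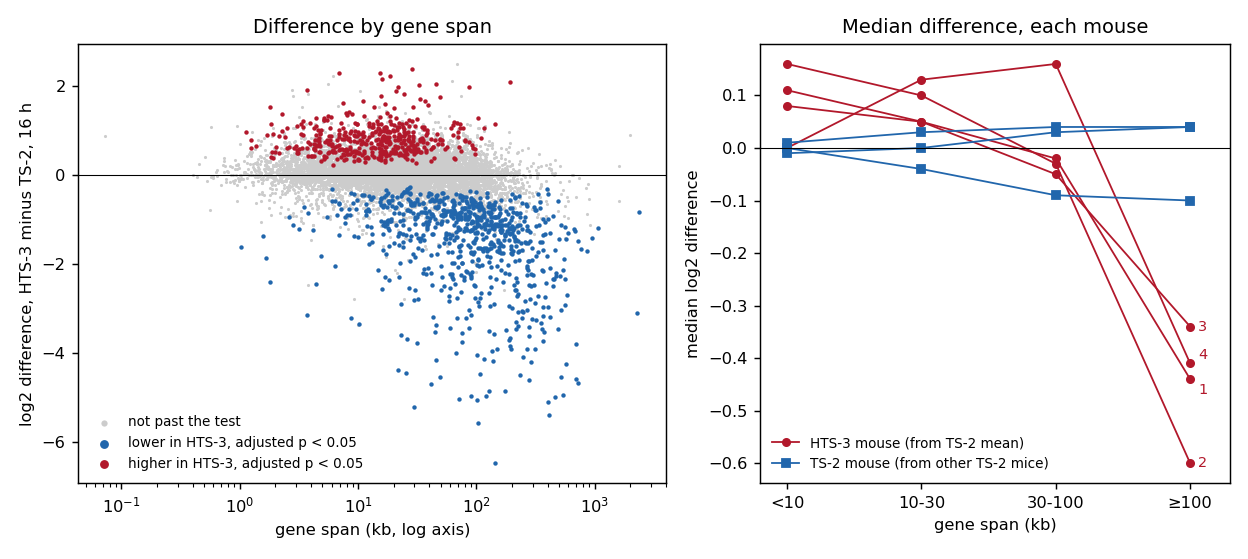
Left, log2 difference of HTS-3 over TS-2 at 16 h (y axis) against gene span in kb (x axis, log scale), with 1 point per tested gene, coloured where it passed the test lower (blue) or higher (red). Right, median log2 difference (y axis) by span class (x axis, kb) for each HTS-3 mouse from the TS-2 mean (red, numbered) and each TS-2 mouse from the other TS-2 mice (blue), with HTS-3 mice at -0.34 to -0.60 and TS-2 mice at -0.10 to 0.04 in the class of 100 kb or more.

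Rises were smaller than falls, and 10 of the 12 largest passed the test whichever of the 7 mice was left out. Polr2a, the largest subunit of RNA polymerase II, had 221, 188, 157 and 807 in HTS-3 livers, against 72.0, 72.0 and 85.9 in TS-2 livers and 71.9, 71.9 and 71.9 in vehicle livers. Every HTS-3 mouse lay above every TS-2 mouse, mouse 4 farthest (3.53-fold higher, log2 difference 1.82 ± 0.33, adjusted p = 1.69e-04). Mycl, a member of the Myc family of transcription factors, had 306, 362, 84.8 and 562 in HTS-3 livers, against 71.1, 45.3 and 51.5 in TS-2 livers and 30.5, 82.1 and 76.2 in vehicle livers (4.90-fold higher, adjusted p = 6.20e-04). Mouse 3 was the lowest HTS-3 mouse and still above the TS-2 mice. Usp2, a deubiquitinating enzyme, had 81.2, 145, 64.6 and 115 in HTS-3 livers, against 15.8, 16.5 and 24.6 in TS-2 livers and 21.8, 25.6 and 30.8 in vehicle livers (at least 3.03-fold higher, adjusted p = 9.75e-05). All TS-2 and vehicle mice were dim for Usp2, while at 8 h the same probe set read 1220 to 3360 in HTS-3 livers and 1270 to 2790 in TS-2 livers. A second probe set of Usp2 gave a difference of 0.47 at 16 h.

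A pair of genes that promote mitochondrial apoptosis by binding Bcl-2 proteins stood among the 12 largest rises. Bmf had 170, 228, 189 and 170 in HTS-3 livers, against 87.2, 37 and 41 in TS-2 livers and 92.1, 92.8 and 157 in vehicle livers (3.69-fold higher, adjusted p = 6.73e-04). Bcl2l11, which encodes Bim, had 49.1, 35.6, 44 and 82 in HTS-3 livers, against 20.3, 10.5 and 18.6 in TS-2 livers and 25.7, 19.2 and 26.5 in vehicle livers (at least 1.57-fold higher, adjusted p = 0.00899, and 0.0808 without TS-2 mouse 2). In both genes the TS-2 means lay under the vehicle means and the HTS-3 means above them. Bcl2l1, which encodes the protective Bcl-xL, was the only list member called lower among 14 tested cell death genes and the only one besides Bcl2l11 past the test. It had 551, 493, 798 and 419 in HTS-3 livers, against 817, 798 and 694 in TS-2 livers, 1.40-fold lower with overlapping groups (adjusted p = 0.0235). That call was lost without HTS-3 mouse 2 or 4 or without TS-2 mouse 1 or 2, with adjusted p values of 0.0725, 0.125, 0.106 and 0.0876. Without HTS-3 mouse 3 the cell death list had 3 members higher and 2 lower.

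Among the other large rises, Camsap3, which binds the minus ends of microtubules, was at least 2.64-fold higher, with 74.8, 60.6, 34.5 and 327 in HTS-3 livers, against 15.2, 27.0 and 24.4 in TS-2 livers. Mtmr7, a lipid phosphatase of the myotubularin family, was 3.91-fold higher, with 132, 287, 110 and 231 in HTS-3 livers, against 42.7, 49.7 and 43.1 in TS-2 livers. In both, mouse 3 was the lowest HTS-3 mouse. The zinc finger gene Zfp647 (at least 2.32-fold), 4930579G24Rik (at least 2.69-fold), Bhlhb9 (3.36-fold) and Lonrf1 (3.24-fold) were also among the 12. Lonrf1 had an adjusted p of 0.00485, and 0.0512 without TS-2 mouse 1. A fit on the 7 arrays alone, with fewer mice to estimate the spread, kept 5 of these 12 rises and all 12 falls past the test.

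**Figure D3:**
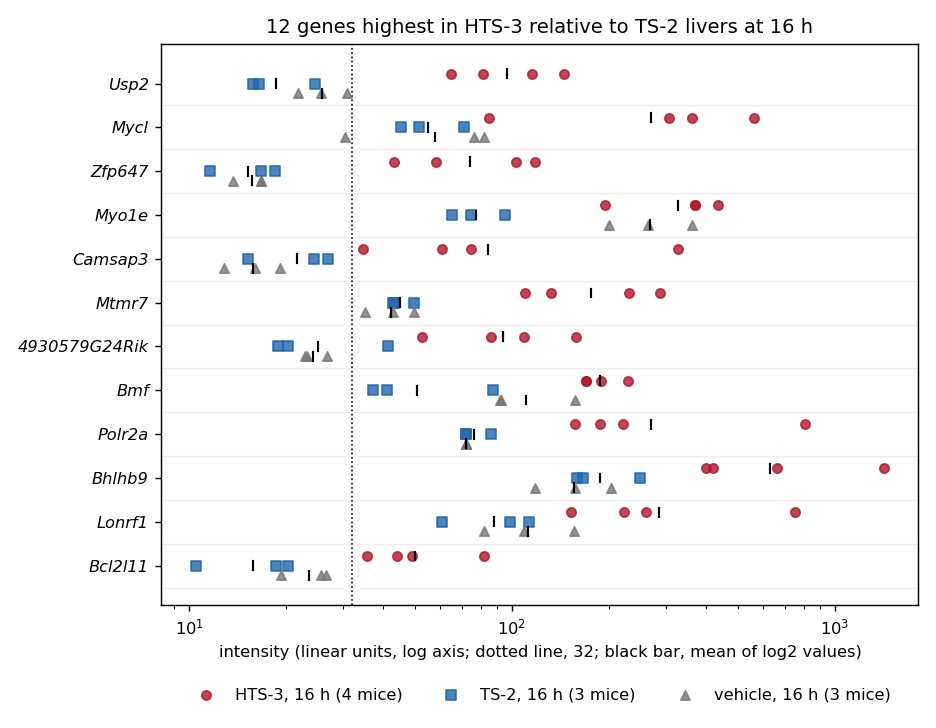
Intensity (x axis, log scale) of the 12 genes with the largest rises in HTS-3 relative to TS-2 livers at 16 h, with 1 point per mouse: HTS-3 (4 mice, red circles), TS-2 (3 mice, blue squares) and vehicle (3 mice, grey triangles), the mean of log2 values as a black bar and the intensity of 32 as a dotted line. HTS-3 points lie right of TS-2 points in every gene, and in Myo1e the vehicle points (200, 362 and 264) lie among the HTS-3 points (194 to 436) rather than the TS-2 points (65.3 to 94.9).

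In some genes that were higher in HTS-3 than in TS-2 livers, the TS-2 mean lay farther from the vehicle mean than the HTS-3 mean did. The zinc finger transcription factor Zfp24 had 963, 981, 874 and 1070 in HTS-3 livers, against 306, 367 and 262 in TS-2 livers and 955, 804 and 595 in vehicle livers. HTS-3 and vehicle mice overlapped, and all TS-2 mice lay under both (HTS-3 3.14-fold higher than TS-2, adjusted p = 2.71e-07; TS-2 minus vehicle -1.32 ± 0.21, adjusted p = 0.00676). Myo1e, a membrane-binding class I myosin, had 369, 194, 369 and 436 in HTS-3 livers, against 74.5, 65.3 and 94.9 in TS-2 livers and 200, 362 and 264 in vehicle livers (4.24-fold higher, adjusted p = 1.79e-04; TS-2 minus vehicle -1.79 ± 0.40, adjusted p = 0.422). Mtss1, an organiser of membrane and actin, was 2.21-fold higher and Tmf1, a Golgi protein, was 2.14-fold higher in HTS-3 than in TS-2 livers. All 4 come from a list of 11 genes lowered by TS-2 in an earlier analysis of these arrays, 7 of which were tested, so the list is no independent evidence of TS-2's direction. Without TS-2 mouse 1 the list had 2 members called higher, and without any other single mouse 3.

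The same list held a pair of long genes that were lower in HTS-3 than in TS-2 livers. Met, the receptor for hepatocyte growth factor, had 486, 270, 996 and 253 in HTS-3 livers, against 985, 1130 and 1110 in TS-2 livers and 1580, 2750 and 2680 in vehicle livers. HTS-3 mouse 3 lay within the TS-2 range, and both groups lay under every vehicle mouse (HTS-3 2.52-fold lower than TS-2, adjusted p = 0.00472). Cadps2, a factor for dense-core vesicle release, had 213, 42.8, 165 and 58.0 in HTS-3 livers, against 498, 684 and 737 in TS-2 livers and 711, 1440 and 690 in vehicle livers (6.53-fold lower, adjusted p = 3.20e-04). Cxadr, a tight junction protein on the list, did not pass the test (log2 difference 0.69, adjusted p = 0.233).

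Hamp was the clearest fall in a short gene. It encodes hepcidin, the liver hormone that binds ferroportin and so keeps iron in cells. Hamp had 12200, 18900, 16400 and 17900 in HTS-3 livers, against 60300, 54600 and 62700 in TS-2 livers and 57900, 53600 and 62100 in vehicle livers. The 4 HTS-3 mice lay close together and well under all other mice (3.66-fold lower, log2 difference -1.87 ± 0.11, adjusted p = 3.41e-13), and a second probe set gave -2.16. Hamp spans 1.66 kb and has a closely similar neighbour, Hamp2, whose transcripts the probe sets may also read. At 8 h it had 59600, 60200 and 57400 in HTS-3 livers, against 64500, 59200, 62200 and 60300 in TS-2 livers, a difference of -0.06. Hamp was the only 1 of 27 tested members of the acute phase and IL-6 list past the test, and the list's median was 0.07, against 0.05 over all genes.

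The promoter of Hamp is shown because that gene had the smallest adjusted p for a change from 8 to 16 h, and iron, BMP and IL-6 signals are known to act through it. The window below, from RefSeq, runs from 250 bases before to 50 bases after the start of transcription on the minus strand of chromosome 7 (GRCm38.p6, chr7:30943980-30944279). Capitals mark matches on either strand to GGCGCC, known as a BMP response element, and to TTCNNNGAA, the letters of a STAT site.
Hamp promoter: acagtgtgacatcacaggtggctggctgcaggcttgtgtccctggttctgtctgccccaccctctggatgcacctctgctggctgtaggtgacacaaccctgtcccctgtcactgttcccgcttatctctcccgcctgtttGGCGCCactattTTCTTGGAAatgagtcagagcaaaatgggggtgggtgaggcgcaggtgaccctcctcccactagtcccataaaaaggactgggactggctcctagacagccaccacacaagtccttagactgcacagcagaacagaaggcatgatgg
The first motif occurs in 11.9% and the second in 8.30% of 32851 mouse promoters of the same length, and in 20.7% and 6.66% of 9606 promoters of tested genes. The letters of the first motif here overlap a match to TTTNNCGC, a motif described for Mcm7 below, which is left in lower case where it extends beyond them. A match is a description of the letters and says nothing of whether a factor was bound in these livers.

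The time course set the 16 h difference against the 8 h difference in other mice of the same treatments. At 8 h, 46 genes passed the test between HTS-3 and TS-2 (0.503%), 45 of them lower in HTS-3. Of the 767 genes called lower at 16 h, 718 (93.6%) were below 0 in the 8 h mice, with a median of -0.35, and 44 passed the test there. This lead was largest in HTS-3 mouse 3 of 8 h, whose description gives 16 h. In HTS-3 mice 1, 2 and 3 of 8 h, 425, 427 and 580 of the 767 genes lay below every TS-2 mouse of 8 h. Their medians over genes of 100 kb or more, from the TS-2 mean of 8 h, were 0.00, -0.10 and -0.56. Of the 425 genes called higher at 16 h, 356 (83.8%) were above 0 at 8 h, with a median of 0.17, and 0 passed the test there. Over all genes 54.7% were below 0 and 45.3% above 0 at 8 h, with a median of -0.02. The difference itself changed between the times in 174 genes (1.90%), 160 toward lower values (1.75%) and 14 toward higher values (0.153%) in HTS-3. That count was 9 with only the compared groups in the fit, 22 with HTS-3 mouse 3 of 8 h, an array of conflicting labels, moved to 16 h and 191 with it left out. It was 384 without HTS-3 mouse 3 of 16 h and 93 without HTS-3 mouse 2 of 8 h, the highest and lowest values with 1 mouse left out, and 97 and 109 without TS-2 mouse 2 or 3 of 16 h. The median span of the 159 of these 160 with an annotated span was 114 kb.

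The genes named above differed in how far apart the groups lay at 8 h. Shtn1 had 136, 173 and 104 in HTS-3 livers at 8 h, against 338, 311, 657 and 368 in TS-2 livers, a difference of -1.57 that did not pass the test there (adjusted p = 0.344), and the difference grew by -4.02 ± 0.77 to 16 h (adjusted p = 0.00360). Dock4 had 42.4, 41.2 and 164 in HTS-3 livers at 8 h, against 175, 220, 171 and 192 in TS-2 livers, a difference of -1.52 that passed the test (adjusted p = 0.00321), and the difference changed by -3.58 ± 0.40 (adjusted p = 3.16e-06). The HTS-3 mouse at 164, mouse 3 of 8 h, is also the array whose title says 8 h and whose description says 16 h. For Arntl, Cdkn1a and Usp2, picked after their values were seen, this array read 6.77, 39 and 1220. The other HTS-3 mice of 8 h read 7.48 in both, 38.2 to 41.4 and 2790 to 3360. HTS-3 mice of 16 h read 258 to 420, 898 to 1770 and 64.6 to 145. Afdn and Elf1 were already low at 8 h, with 15, 20.2 and 10.2 for Afdn in HTS-3 livers, against 499 to 597 in TS-2 livers, and 85.6, 52.8 and 23.8 for Elf1 in HTS-3 livers, against 319 to 378 in TS-2 livers. Their change from 8 to 16 h did not pass the test (adjusted p = 0.131 and 0.172).

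The 5 smallest adjusted p values of the time comparison toward lower values belonged to Hamp (change of -1.81 ± 0.15, adjusted p = 1.77e-08), Dock4, Atrnl1, Rhbdd1 and Vti1a. Vti1a, a SNARE protein of endosome and Golgi traffic, was at least 6.62-fold lower at 16 h, but a second probe set of the gene gave a difference of -0.09. Toward higher values they belonged to Pgpep1, Cdk20, Cyb5d1, Stx2 and Mtmr7. Cdk20, a cyclin-dependent kinase, had 120, 105, 77.3 and 146 in HTS-3 livers at 16 h, against 34.2, 42.2 and 31.7 in TS-2 livers. At 8 h it had 28.0, 24.2 and 28.9 in HTS-3 livers, against 24.2 in each TS-2 liver. All 8 h values were dim and the TS-2 value was exactly repeated, so the size of the change is uncertain. Stx2, a syntaxin of membrane fusion, had 554, 704, 663 and 807 in HTS-3 livers at 16 h, against 297, 302 and 361 in TS-2 livers, a 2.12-fold difference that was not seen at 8 h (difference 0.03).

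**Figure D4:**
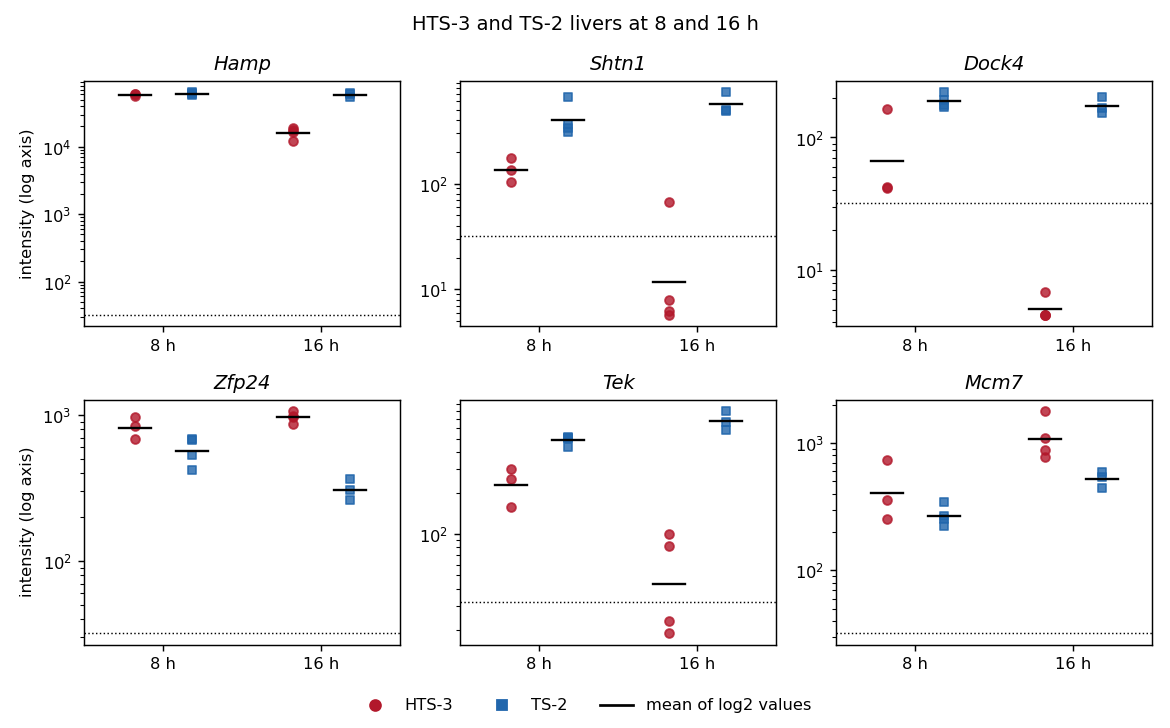
Intensity (y axis, log scale) of 6 genes at 8 and 16 h (x axis), with 1 point per mouse for HTS-3 (red circles, 3 mice at 8 h and 4 at 16 h) and TS-2 (blue squares, 4 mice at 8 h and 3 at 16 h), the mean of log2 values as a black bar and the intensity of 32 as a dotted line. Hamp is alike in both groups at 8 h and lower in HTS-3 at 16 h (12200 to 18900, against 54600 to 62700 in TS-2), Shtn1, Dock4 and Tek lie under TS-2 in HTS-3 at both times, and Zfp24 at 16 h is higher in HTS-3 (874 to 1070) than in TS-2 (262 to 367).

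Genes of lists of pathways and cell markers were then counted, beside the backgrounds of 4.65% higher and 8.39% lower. Calls of single genes depended on the fit. Of 66 named genes past the test, the largest changes included, 31 lost the call with only the compared groups in the fit. The call was kept under every alternative in 32 of the 66. Among the lists not drawn from earlier results, DNA replication had the largest share called higher, 5 of 15 tested members. The list's median was 0.50 at 16 h and already 0.59 at 8 h, against 0.05 and -0.02 over all genes. At 8 h 1 other member was called higher, the only gene called higher there. Mcm7, a subunit of the replicative helicase, had 1090, 885, 778 and 1800 in HTS-3 livers, against 442, 597 and 546 in TS-2 livers and 541, 545 and 525 in vehicle livers. Every HTS-3 mouse lay above every TS-2 mouse (2.06-fold higher, log2 difference 1.04 ± 0.31, adjusted p = 0.0216). The 3 other probe sets of Mcm7 gave differences of 0.27 to 1.17. Rrm2, a subunit of ribonucleotide reductase, had 298, 202, 105 and 623 in HTS-3 livers, against 96.4, 96.4 and 117 in TS-2 livers (2.44-fold higher, adjusted p = 0.0380), with HTS-3 mouse 3 within the TS-2 range. The licensing factor Cdt1 (at least 1.71-fold), the reductase subunit Rrm1 (1.65-fold) and the helicase subunit Mcm2 were the others, and Pcna did not pass the test (log2 difference 0.19, adjusted p = 0.437). These calls were close to the threshold: 0 of the 15 passed without HTS-3 mouse 4, without TS-2 mouse 1 or without TS-2 mouse 3, and 1 without HTS-3 mouse 1 or without TS-2 mouse 2. With the array of conflicting labels moved to 16 h 0 passed. The list of G2 and mitosis genes had 4 tested members, 0 past the test and a median of 0.03.

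The promoter of Mcm7 is shown because several replication genes are known targets of E2F factors. The window, from RefSeq (GRCm38.p6, minus strand of chromosome 5, chr5:138171834-138172133), has matches on either strand to TTTNNCGC, the letters of an E2F site, in capitals.
Mcm7 promoter: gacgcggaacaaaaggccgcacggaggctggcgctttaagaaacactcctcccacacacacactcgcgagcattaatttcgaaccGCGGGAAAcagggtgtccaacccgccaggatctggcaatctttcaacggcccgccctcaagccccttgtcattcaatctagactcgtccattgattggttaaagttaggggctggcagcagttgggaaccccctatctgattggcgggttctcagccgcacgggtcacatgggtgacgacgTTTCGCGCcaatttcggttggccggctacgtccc
The letters occur in 5.17% of 32851 mouse promoters of this length and in 8.13% of 9606 promoters of tested genes. Of 12 tested replication genes with a promoter in the table, 6 had a match: Cdt1, Mcm3, Mcm5, Mcm6, Mcm7 and Pclaf. Of these, Mcm3, Mcm5, Mcm6 and Pclaf did not pass the test.

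Lower in HTS-3 livers were 4 of 14 tested markers of liver sinusoidal endothelium, the fenestrated lining of the sinusoids. Tek, the angiopoietin receptor Tie2, had 23.3, 81.9, 99.7 and 18.8 in HTS-3 livers, against 578, 667 and 802 in TS-2 livers and 522, 808 and 595 in vehicle livers (15.6-fold lower, log2 difference -3.96 ± 0.41, adjusted p = 2.97e-08). Stab2, a scavenger receptor for hyaluronan, had 175, 166, 206 and 411 in HTS-3 livers, against 728, 648 and 883 in TS-2 livers and 642, 647 and 641 in vehicle livers (3.35-fold lower, adjusted p = 6.19e-04). Kdr, a VEGF receptor, was 2.11-fold lower and Oit3 was 2.05-fold lower. Eng, a co-receptor of TGF-beta, was higher, with 806, 788, 764 and 954 in HTS-3 livers, against 556, 467 and 599 in TS-2 livers (adjusted p = 0.0343). Other markers of the same cells, Lyve1, Flt4, Mrc1 and Clec4g, had differences of -0.04, 0.15, -0.01 and -0.28 and did not pass. The summed intensity of the 14 markers was 11600 to 17400 in HTS-3 livers and 17700 to 22100 in TS-2 livers. In these bulk samples fewer cells of a type and less RNA per cell cannot be told apart. Tek and Stab2 span 136 and 167 kb, Kdr 46.2 kb and Oit3 18.8 kb, and the part of gene span in these falls was not tested. The Oit3 call was lost without HTS-3 mouse 1 or 2 or without any 1 of the TS-2 mice (adjusted p of 0.0546 to 0.179), and the Eng call without HTS-3 mouse 1, 2 or 4 or without TS-2 mouse 1 or 2, which left 0 markers higher. Without HTS-3 mouse 3, 5 markers were lower.

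Markers of other cell types had 0 members past the test between HTS-3 and TS-2 livers. The medians were -0.32 over 12 tested Kupffer cell markers, with summed intensities of 28900 to 34000 in HTS-3 livers and 32100 to 40700 in TS-2 livers, and -0.49 over 7 tested monocyte and macrophage markers (2180 to 4960 in HTS-3 livers, 3920 to 6040 in TS-2 livers). Of these markers 11 of 12 and 7 of 7 were below 0. Without HTS-3 mouse 2 or mouse 3, 1 Kupffer cell marker was lower. Against vehicle, 6 of the 12 and 3 of the 7 were called lower in HTS-3 livers and 0 in TS-2 livers. Over all 9137 genes 802 were lower in HTS-3 than in vehicle livers. The vehicle livers varied, with sums of 35000 to 62800 for Kupffer cell markers and 3860 to 18700 for monocyte and macrophage markers. Clec4f, the lectin that marks Kupffer cells, had 2180, 3190, 2480 and 2280 in HTS-3 livers, against 3380, 2570 and 3150 in TS-2 livers. Of 12 measured neutrophil markers, 10 stayed under the filter, and the other two, S100a8 and S100a9, summed to 154 to 319 in HTS-3 livers and 135 to 215 in TS-2 livers. The lists of hepatocyte, lymphocyte, stellate, cholangiocyte and red blood cell markers had 9, 4, 11, 1 and 1 tested members and medians of 0.04, -0.21, 0.29, -0.07 and 1.13, and without HTS-3 mouse 2 the collagen gene Col3a1 of the stellate list passed (adjusted p = 0.0443). In the last list the erythroid enzyme Alas2 varied within groups, with 4210, 635, 4050 and 5850 in HTS-3 livers, against 587, 4970 and 730 in TS-2 livers.

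The cell junction list had a median of 0.10, with 12 of 19 tested members above 0. Called higher were 0, and 1 without HTS-3 mouse 2 or mouse 3. Called lower were 3 (15.8%, against 8.39% over all genes), a count that no single mouse changed. Besides Afdn, which HTS-3 also lowered in an earlier analysis of these arrays, Cdh2 and Nectin3 were lower. Cdh2, or N-cadherin, had 377, 121, 383 and 328 in HTS-3 livers, against 1290, 1760 and 1410 in TS-2 livers (5.37-fold lower, adjusted p = 4.80e-05). Nectin3, a nectin that afadin binds, was 1.72-fold lower (adjusted p = 0.00111). The partners Ctnna1, Ctnnb1, Tjp1 and Cdh1 had differences of 0.22, 0.28, 0.30 and -0.47 and did not pass. Cdh2, Nectin3 and Afdn span 220, 111 and 145 kb, and Tjp1, which did not pass, 232 kb.

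Of 15 tested genes of glucose control 2 were called lower (13.3%, against 8.39% over all genes). The list's median was -0.33, with 13 members below 0. Irs1, an adaptor of the insulin receptor, had 170, 67.8, 321 and 103 in HTS-3 livers, against 876, 1240 and 904 in TS-2 livers and 566, 667 and 819 in vehicle livers (7.13-fold lower, adjusted p = 2.14e-05). Gys2, liver glycogen synthase, had 434, 245, 457 and 532 in HTS-3 livers, against 2270, 2550 and 2480 in TS-2 livers and 1520, 1950 and 1760 in vehicle livers (6.06-fold lower, adjusted p = 5.60e-09). In both genes the TS-2 mice lay above all vehicle mice and the HTS-3 mice below them. The gluconeogenic enzymes Pck1 and G6pc had differences of -0.78 and -0.58 and did not pass (adjusted p = 0.348 and 0.500).

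The clock list had a median of -0.05 and 2 of 14 members lower (14.3%, against 8.39% over all genes). They were Clock, with 206, 153, 294 and 121 in HTS-3 livers, against 528, 634 and 671 in TS-2 livers (3.32-fold lower, adjusted p = 5.33e-04), and its partner Arntl, or Bmal1, 1.72-fold lower (adjusted p = 0.0310). The Arntl call was lost without HTS-3 mouse 1, 2 or 4 or without any 1 of the TS-2 mice (adjusted p of 0.0607 to 0.110). Of 18 tested genes of RNase H, RNA decay and gapmer-binding proteins, 3 were lower (16.7%), and the list's median was -0.17. They were the exosome nuclease Exosc10 (2.02-fold, adjusted p = 3.17e-04), the paraspeckle protein Pspc1 (1.79-fold, adjusted p = 0.00452) and Xrcc5, or Ku80 (1.66-fold, adjusted p = 0.0445). A second probe set of Exosc10 gave a difference of -0.36, against -1.02. Leaving out 1 mouse gave 2 to 4 members lower, except that without TS-2 mouse 3 Exosc10 alone passed. Rnaseh1, the enzyme gapmers depend on, lay just above the limit of 32 in both groups, with 35.4 to 39.5 in HTS-3 livers and 39.5 in each TS-2 liver.

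Of 18 tested folding factors of the endoplasmic reticulum 3 were called lower (16.7%, against 8.39% over all genes), and the list's median was -0.33. Dnajb9, an Hsp70 co-chaperone induced by the unfolded protein response, had 5190, 5530, 12600 and 4470 in HTS-3 livers, against 14400, 15400 and 15400 in TS-2 livers and 5890, 7140 and 7910 in vehicle livers. The TS-2 mice lay above all vehicle mice and HTS-3 mouse 3 between them and its own group (2.37-fold lower, adjusted p = 0.0113, and 0.0526 without HTS-3 mouse 4). Manf, a secreted stress-induced protein, had 6030, 8760, 18800 and 5530 in HTS-3 livers, against 19500, 19500 and 20700 in TS-2 livers (2.31-fold lower, adjusted p = 0.0335), and Dnajc3 was 1.52-fold lower (adjusted p = 0.0389). The list had 4 members lower without HTS-3 mouse 3 and 1 without any other single mouse. Hspa5, the chaperone BiP, did not pass (log2 difference -0.57, adjusted p = 0.302).

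Stress and inflammation lists had few members past the test. Of 17 p53 targets 0 passed, with a median of 0.40. Cdkn1a, the cell cycle inhibitor p21, had 898, 1770, 1360 and 1500 in HTS-3 livers, against 754, 493 and 1170 in TS-2 livers and 286, 359 and 535 in vehicle livers, and HTS-3 mouse 1 lay within the TS-2 range (log2 difference 0.83, adjusted p = 0.375). It did pass between HTS-3 and vehicle livers (1.82 ± 0.54, adjusted p = 0.0181). Against vehicle, 3 p53 targets were higher and 1 lower in HTS-3 livers, and 0 passed in TS-2 livers. Over all 9137 genes 734 were higher and 802 lower in HTS-3 than in vehicle livers. Between HTS-3 and TS-2 livers 1 p53 target passed without HTS-3 mouse 1 or 3. Of 23 interferon-stimulated genes 0 passed, with a median of 0.42. Usp18, a brake on interferon signalling, had 280, 170, 134 and 487 in HTS-3 livers, against 95.7, 98.5 and 77.1 in TS-2 livers and 209, 205 and 364 in vehicle livers (adjusted p = 0.118), so that the TS-2 mice were the low ones. Without HTS-3 mouse 3, 1 interferon-stimulated gene passed.

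Single genes often read as signs of liver injury or stress did not pass the test either. Mdm2, the p53 target that degrades p53, had 271, 373, 274 and 372 in HTS-3 livers, against 210, 254 and 223 in TS-2 livers, with no overlap (log2 difference 0.48, adjusted p = 0.15). The acute phase genes Saa1, Saa3 and Lcn2 had differences of 0.69, -0.28 and -0.28, and Socs3, a brake on cytokine signalling, had 0.75. The interferon-induced genes Ifit1 and Cxcl10 had differences of 1.04 and 0.01. Atf3 and Ddit3, transcription factors of the stress response, had 0.06 and 0.25, and Atf3 was dim in every HTS-3 and TS-2 mouse. Hmox1 and Nqo1, targets of NRF2, had -0.10 and 0.23, and the metallothionein Mt1 had 0.78, with HTS-3 mouse 2 highest at 6080. Alb, or albumin, had 77300 to 81200 in HTS-3 livers and 73800 to 79400 in TS-2 livers, and Hmgcs1 of cholesterol synthesis had a difference of 0.18.

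Of 17 immediate early and growth arrest genes, Jund passed (1.51-fold higher, adjusted p = 0.00699, and 0.0533 without TS-2 mouse 1), with a list median of 0.60 and 3 members higher without HTS-3 mouse 3. Of 15 NRF2 targets, Srxn1, which repairs peroxiredoxins, was 1.72-fold higher (adjusted p = 0.00657, and 0.053 without TS-2 mouse 2) and Gsr, glutathione reductase, 2.25-fold lower (adjusted p = 0.00678). Of 16 integrated stress response genes, the mitochondrial folate enzyme Mthfd2 was 1.82-fold higher (adjusted p = 0.00284) and the translation repressor Eif4ebp1 1.37-fold higher (adjusted p = 0.0380). Leaving out any 1 mouse but HTS-3 mouse 4 left 1 of them. Cytokines, chemokines and NF-kappaB targets had 11 tested members, 0 past the test and a median of 0.08, and Ccl2 stayed under the filter.

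Few genes of liver metabolism passed the test. Of 21 P450 genes, Cyp2c70, which hydroxylates bile acids, was lower, with 16300, 5450, 17600 and 12000 in HTS-3 livers, against 33100, 27200 and 33200 in TS-2 livers (2.65-fold, adjusted p = 2.90e-05). Cyp3a11 and Cyp2b10, induced by xenobiotic receptors, had differences of 0.04 and -0.50 (adjusted p = 0.850 and 0.679). Of 17 fatty acid synthesis genes, Acaca, acetyl-CoA carboxylase, was 2.36-fold lower (adjusted p = 0.0214), a call lost without HTS-3 mouse 2 or without TS-2 mouse 1 or 3 (adjusted p of 0.0727 to 0.154). Of 20 genes of the urea cycle and amino acid breakdown, the mitochondrial carrier Slc25a13 was 1.98-fold lower (adjusted p = 0.00400) and Prodh, proline dehydrogenase, 1.66-fold lower (adjusted p = 0.0464). Leaving out any 1 mouse but HTS-3 mouse 2 left 1 of this pair. Of 20 hepatocyte transcription factors, Onecut1 was 3.81-fold lower (adjusted p = 0.0286), a call lost without HTS-3 mouse 1 or 3 or without TS-2 mouse 2 or 3 (adjusted p of 0.0629 to 0.149). A second probe set of Onecut1 gave -0.56.

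Bile acid synthesis and transport, cholesterol synthesis, PPAR-alpha and fatty acid oxidation, coagulation and complement, and cytosolic ribosomal proteins had 21, 19, 20, 26 and 27 tested members and 0 past the test, with medians of 0.01, 0.04, 0.16, 0.11 and -0.10. Cyp7a1, the rate-limiting enzyme of bile acid synthesis, had 858, 4050, 752 and 1210 in HTS-3 livers, against 1880, 1490 and 5110 in TS-2 livers, with overlapping groups. Abcc3, a basolateral bile acid exporter, had 2330, 604, 659 and 3260 in HTS-3 livers, against 612, 664 and 613 in TS-2 livers (adjusted p = 0.111), and passed without HTS-3 mouse 2 (adjusted p = 0.0259) or mouse 3 (adjusted p = 0.026). Without HTS-3 mouse 3, 2 bile acid genes were higher and 1 lower. Cyp4a14, a PPAR-alpha target, had 14.4, 4300, 13.9 and 7.80 in HTS-3 livers, against 2320, 1850 and 34.0 in TS-2 livers and 8.17, 3400 and 378 in vehicle livers. Each group held both high and low mice, and the gene did not pass (adjusted p = 0.360). Without HTS-3 mouse 3, mouse 4 or TS-2 mouse 1, 1 PPAR-alpha gene passed.

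**Figure D5:**
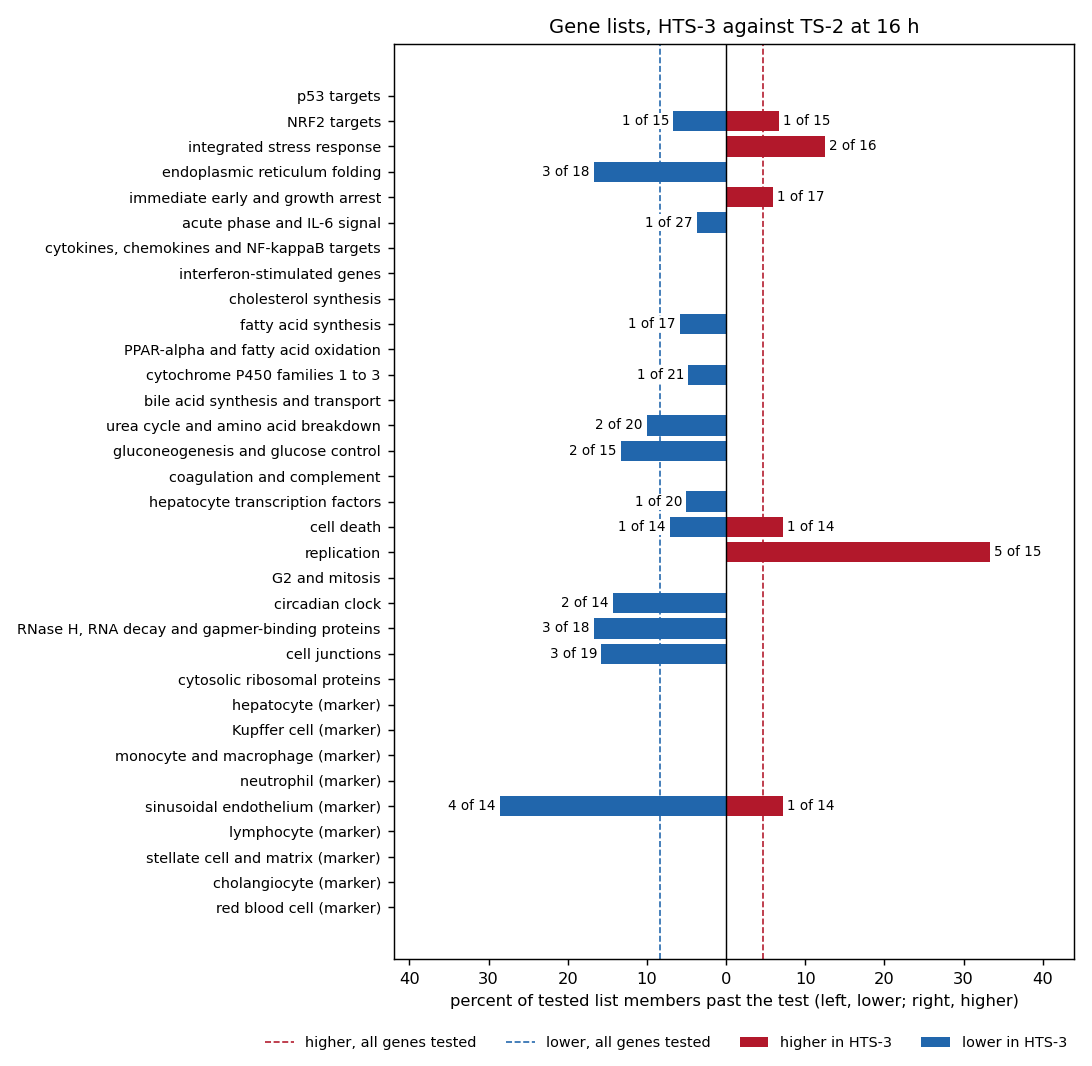
Percent of the tested members of each gene list, other than the lists taken from an earlier analysis of these arrays, that passed the test between HTS-3 and TS-2 livers at 16 h (x axis, lower to the left in blue, higher to the right in red), with the counts beside the bars and the shares over all tested genes, 8.39% lower and 4.65% higher, as dashed lines. The longest bars are 5 of 15 replication genes higher and 4 of 14 sinusoidal endothelium markers lower, and lists without a bar had no member past the test.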

How the data were processed

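Liver RNA (RNeasy) was labelled with a single-round kit and hybridised to Affymetrix arrays, 1 array per mouse, per the labels' protocols. The authors deposited normalized intensity values, made by RMA per the submitters' processing notes, with no version named there. The deposited intensity values are on a linear scale, whereas the plan had assumed log2 values, so log2 was taken first. RMA as usually run brings arrays to a shared distribution, and a shift common to all genes is then not measured.

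Of 45101 probe sets, 34958 had 1 gene symbol, 932 several and 9211 none in the platform annotation, and 34754 matched RefSeq (GRCm38.p6) by gene ID. The brightest probe set by the mean over 37 single-dose arrays stood for each of 18194 genes, and 9137 genes reaching 32 on at least 3 arrays were tested. limma 3.58.1 (R 4.3.3) was fitted once over the 37 arrays in 11 groups, which share 1 estimate of the spread, with eBayes and Benjamini-Hochberg adjustment at 0.05. The script was tested on simulated data. The 19 arrays of repeated dosing were not used.

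Named genes were the 12 largest changes each way among genes past the test whose groups did not overlap and whose brighter group reached 32 on every array, up to 4 of each list past the test or the largest difference of a list with none, the 5 smallest adjusted p each way of the time comparison and a panel of 30 genes (Gdf15 not analysed here). Mcm2, Mtss1, Tmf1, Eng and further list members given as not past the test were added after their values were seen. Members, lists and tests were chosen with earlier results of these data known. Same-numbered mice did not deviate together (correlations 0.02, 0.03 and 0.02 at 16 h), so the numbers were not used as pairs, and 0 of 666 array pairs were identical. Alternatives changed the filter, the probe set rule, the normalization, the weights, the covariates and the mice included.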

Additional observations from a re-analysis of the deposited data

Results flagged for a closer look

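In 12 of the 104 named genes 1 HTS-3 mouse at 16 h lay apart from the other HTS-3 mice by more than a 95% criterion on the gap allows (chance gives about 1 in 20 groups). Mouse 3 was high in Shtn1 at 67.6 (others 5.74 to 7.89), Fbxl17 at 133 (12.5 to 15.2), Pde8a at 76.1 (6.88 to 9.49), Ap2a2 at 79.1 (12.3 to 15.8) and Rpl14 at 821 (157 to 177). Mouse 2 was low in Alas2 at 635 (4050 to 5850) and Cdh2 at 121 (328 to 383) and high in Cyp4a14 at 4300 (7.80 to 14.4). Small gaps near the lowest values did the same for Afdn (8.2 in mouse 4), Dock4 (6.82 in mouse 2) and Fcgr1 (18 in mouse 1), and Epcam read 245 in mouse 4 and 247 in the others.

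The HTS-3 against TS-2 difference changed between 8 and 16 h, by the interaction test, in 174 genes. Among those named, it moved by -1.81 in Hamp, -3.58 in Dock4, -3.34 in Atrnl1, -3.82 in Rhbdd1 and -2.77 in Vti1a, and by 0.59 in Pgpep1, 1.45 in Cdk20, 1.06 in Cyb5d1, 1.06 in Stx2 and 1.70 in Mtmr7.

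Among probe sets with no gene name that reached the filter, 79 of 842 (9.38%) passed the test between HTS-3 and TS-2 livers at 16 h, 24 higher and 55 lower.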

How the results depend on the processing

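The count of 1192 genes between HTS-3 and TS-2 livers at 16 h was 352 with only the compared groups in the fit (60 higher, 292 lower), 1885 with the Actb 3'/5' ratio as a covariate (963 higher, 922 lower) and 586 at a minimum of 2-fold. It was 816 to 1540 when 1 mouse was left out. The 174 genes of the time comparison became 9 with only the compared groups, 60 with array weights, 280 with the Actb covariate and 22 with the array of conflicting labels moved to 16 h, and 93 to 384 when 1 mouse was left out. With the replicate number as a block, a paired fit whose numbers tie no mice together, the replicate block gave 1051 and 114 genes. Without vehicle mouse 1, chosen after seeing the data, 1017 genes in place of 1536 differed between HTS-3 and vehicle and 0 in place of 1 between TS-2 and vehicle. The causes were not tested. Of 2099 values of named genes under the alternatives, 1932 kept their direction and side of the threshold, 156 lost the call, 11 gained one and 0 reversed. Intensities near the floor of 4.56 limit the size of the largest falls.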

Other observations

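Other probe sets of the same gene moved the same way in 325 of 339 genes called lower in HTS-3 than in TS-2 livers (95.9%), in 125 of 130 called higher (96.2%) and in 2138 of 2960 not called (72.2%). Exactly repeated values were common among dim genes: 776 of 9137 tested genes (8.49%) had the same value on at least 3 of the 7 arrays. Of the 1192 genes past the test 29 did (2.43%).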
